A study of Mus musculus with 2 samples.

Results

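The exons described here are the cassette-class microexons of N2A cells, a mouse neuroblastoma line, measured by RNA-seq after knockdown of the splicing repressor PTBP1. A microexon was an exon of 30 nt or less. The members were chosen by exon length, by class in the exon database of SpliceTrap, the program that estimated inclusion, and by their reads: at least 20 reads on the exon trio in each library, with no limit on the inclusion level. A trio is an exon with its upstream and downstream neighbours. The rule found 341 microexons in 304 genes, out of 539 cassette-class exons of this length and 9319 cassette-class exons of any length. Of the 198 microexons left out, 126 had no read in either library.

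The study compared N2A cells transfected with shControl, a control shRNA, with N2A cells transfected with shptbp1, an shRNA against Ptbp1. Both were collected 3 days after transfection and 1 strand-specific paired-end library was made from each, so every difference below is a difference between these libraries with no replicate check. Both groups were the same cell line, both carried an shRNA plasmid, and the knockdown was transient. In RNA from a whole culture, a change in every cell cannot be told apart from a larger change in some cells, and fewer cells of a type cannot be told apart from less RNA per cell. Summed over the loci of the gene, Ptbp1 FPKM was lower in the knockdown library by a log2 ratio of -1.61, which checks the label. Of the neuronal markers checked, Gap43, Stmn2 and Map2 were above 0 in both libraries with log2 ratios of 0.53, -0.65 and -0.22, and Tubb3 could not be assigned to a locus in both. The median member had 414 trio reads with shControl and 376 with shptbp1, and the median number of its junction reads was 200 and 169.

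Microexons are the shortest exons of vertebrate genes, and many of them are included in neurons and skipped elsewhere. Most neuronal microexons keep the reading frame and add a few residues to the surface of a protein, often in proteins of the synapse, the cytoskeleton and membrane traffic. PTBP1 binds pyrimidine-rich RNA near the 3' splice site and represses many neuronal exons in cells that are not mature neurons. SRRM4 and SRRM3, related splicing activators, bind sites containing UGC just upstream of microexons and promote their inclusion.

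Sequences of 11 microexons are shown first because the comparison below turns on the short exon and the intron just before it. Each is the sense strand of the mm9 genome, 5' to 3', with 70 nt of upstream intron and 20 nt of downstream intron in lower case and the exon in capitals. The first 7 are microexons whose inclusion was higher in the knockdown library.
Exoc1: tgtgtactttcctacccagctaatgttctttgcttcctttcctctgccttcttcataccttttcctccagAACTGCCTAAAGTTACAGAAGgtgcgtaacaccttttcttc
Fbxo25: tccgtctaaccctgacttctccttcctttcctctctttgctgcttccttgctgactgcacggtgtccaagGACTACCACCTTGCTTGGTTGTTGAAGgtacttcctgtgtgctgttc
Ank3: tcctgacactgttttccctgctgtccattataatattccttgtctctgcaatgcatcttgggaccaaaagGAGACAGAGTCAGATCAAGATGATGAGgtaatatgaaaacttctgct
Bak1: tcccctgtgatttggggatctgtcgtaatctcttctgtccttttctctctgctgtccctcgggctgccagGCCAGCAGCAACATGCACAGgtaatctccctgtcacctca
Plec: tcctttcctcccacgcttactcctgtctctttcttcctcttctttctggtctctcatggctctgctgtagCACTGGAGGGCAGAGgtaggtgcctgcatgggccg
Dctn1: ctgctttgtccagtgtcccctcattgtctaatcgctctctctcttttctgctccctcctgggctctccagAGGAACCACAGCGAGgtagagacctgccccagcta
Eif4g1: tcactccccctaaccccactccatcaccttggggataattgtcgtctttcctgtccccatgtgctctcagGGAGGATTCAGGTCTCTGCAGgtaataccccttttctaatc
The Exoc1 window is chr5:76969702-76969812 on the plus strand, that of Fbxo25 chr8:13938852-13938968 on the plus strand and that of Ank3 chr10:69443502-69443618 on the plus strand. The Bak1 window is chr17:27158588-27158697 on the minus strand, that of Plec chr15:76024969-76025073 on the minus strand, that of Dctn1 chr6:83147243-83147347 on the plus strand and that of Eif4g1 chr16:20674789-20674899 on the plus strand. In the Exoc1, Fbxo25, Plec and Dctn1 windows the lower-case stretch before the exon is largely C and T.

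The next pair are the microexons with the largest falls, and the last pair are microexons whose inclusion moved by less than 5 percentage points although their trios were well covered.
Iffo1: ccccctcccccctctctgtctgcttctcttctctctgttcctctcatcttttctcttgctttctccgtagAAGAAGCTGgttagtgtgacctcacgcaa
Heatr7a: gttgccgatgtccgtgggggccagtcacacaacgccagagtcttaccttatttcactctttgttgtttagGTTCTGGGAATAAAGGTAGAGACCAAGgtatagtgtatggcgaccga
Itsn1: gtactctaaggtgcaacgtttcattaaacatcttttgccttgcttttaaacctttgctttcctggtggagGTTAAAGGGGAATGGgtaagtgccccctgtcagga
Zmynd8: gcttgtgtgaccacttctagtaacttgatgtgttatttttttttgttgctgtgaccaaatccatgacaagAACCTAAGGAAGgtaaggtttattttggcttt
The Iffo1 window is chr6:125101743-125101841 on the plus strand and that of Heatr7a chr15:76262732-76262848 on the plus strand. The Itsn1 window is chr16:91842803-91842907 on the plus strand and that of Zmynd8 chr2:165678348-165678449 on the minus strand. All of these exons except that of Ank3 are coding exons of the GENCODE annotation with the same ends, and the Ank3 exon is not annotated there. Across the members, 256 matched an annotated coding exon, 11 an annotated exon that is partly coding and 16 an annotated exon outside the coding sequence, while 48 had no annotated counterpart and 10 more had none but overlapped coding sequence. The splice sites were AG before the exon and GT after it in 333 of the 341.

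Inclusion was measured as PSI, the percent of transcripts that include the exon, taken from the inclusion ratio of SpliceTrap after its model correction. Delta PSI was the knockdown PSI minus the control PSI, in percentage points. Inclusion of microexons was higher in the knockdown library far more often than it was lower. A rise of 5 points or more was measured for 162 of the 341 microexons (47.5%), against 16.1% of all 6564 cassette-class exons with the same minimum of reads and 14.4% of the 6223 longer than 30 nt. It fell by 5 points or more in 23 microexons (6.74%), against 14.6% of all cassette-class exons. Counting any size of difference, 262 microexons had the higher PSI in the knockdown library and 60 the lower. Over all 6564 cassette-class exons, 2839 had the higher and 2943 the lower.

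The median delta PSI of the microexons was 4.4 points, with quartiles of 0.1 and 14.7, and the median over all cassette-class exons was 0.0, with quartiles of -2.0 and 2.0. The median PSI of the microexons was 23.7 with shControl and 50 with shptbp1, whereas exons longer than 30 nt had medians of 81.4 and 80. Microexons were thus mostly skipped in the control library and longer cassette exons mostly included. Both libraries held microexons at the extremes, with 50 under a PSI of 5 in both and 42 over 95 in both. The 50 include Arfgap1, Git1 and Map2k5, whose junction reads, given below, showed no skipping, so that their level is undetermined.

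**Figure D1:**
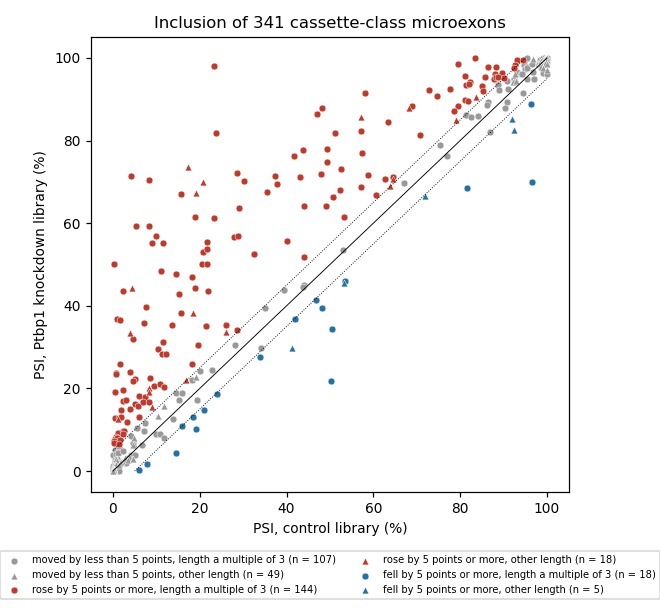
PSI of each of the 341 microexons in the control library (x axis, percent) and the Ptbp1 knockdown library (y axis, percent). The solid line marks equal PSI and the dotted lines a difference of 5 points. Circles are lengths that are multiples of 3 and triangles other lengths. The 162 microexons that rose lie above the upper dotted line from every control PSI up to 95, and the 23 that fell lie below the lower line.

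Reads on splice junctions give a second view of the same libraries. A read that spans a whole microexon crosses both of its junctions, yet most inclusion reads of the microexons were listed on the junction that comes first in the genome, 89.2% (control) and 88.3% (knockdown). Counting such a read once, on that junction, would give 82.6% at these lengths. However, 14 members had more reads on the other junction. Inclusion reads lay on 1 junction only in 116 members (control) and 103 (knockdown). Some of these were deep, such as Anxa6 (18 nt) with 1019 left and 0 right reads in the control library. This counting thus does not describe every member, and its cause was not tested. Inclusion junction reads were therefore summed, divided by 1 plus the exon length over the read length of 100, and set against skipping reads as scaled junction PSI, which treats a spanning read as counted once. It differed from SpliceTrap PSI by a median of -0.158 points (control) and -0.184 points (knockdown). In 4 of the 327 members with 20 or more junction reads in a library the measures differed by 20 points or more: Arfgap1 (30 nt), Git1 (27 nt) and Map2k5 (30 nt) had a PSI of 0.0 in both libraries although none of their junction reads skipped the exon, and Lphn2 (27 nt) had 17.8 against 45.8 in the knockdown library. Of the 162 rises, 124 had a 95% Newcombe interval of the junction difference that lay above 0 (36.4% of the members, against 8.71% of all cassette-class exons). Of the 23 falls, 8 had an interval below 0 (2.35%, against 6.66%). These intervals cover counting error only. Two-sided Fisher's exact tests on the junction reads were adjusted by Benjamini-Hochberg over 6513 exons. They gave an adjusted p under 0.05 for 118 microexons with the higher and 7 with the lower junction PSI. The same count was not made over all cassette-class exons, so no background share stands beside it. The tests compare the libraries, not the conditions.

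In Exoc1, a subunit of the exocyst that tethers secretory vesicles, the 21-nt microexon had a PSI of 8.3 over 561 trio reads and 70.4 over 476. The skipping junction of Exoc1 fell from 217 to 59 reads while its left inclusion junction went from 16 to 135, and the junction interval was 54.9 to 69.2 (adjusted p = 4.4e-48 by Fisher's exact test). The exon went from mostly skipped to mostly included. In Fbxo25, an F-box protein of a ubiquitin ligase, the 27-nt microexon had a PSI of 23.7 over 4097 trio reads and 81.8 over 4591. The trio of Fbxo25 was deep in its flanking exons, with 275 and 315 reads on the junctions themselves, which gave an interval of 49.2 to 63.3.

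In Ank3, which encodes ankyrin-G, an anchor of membrane proteins at the axon initial segment, the 27-nt microexon had a PSI of 8.4 over 317 trio reads and 59.4 over 263. Its sequence keeps the reading frame by length, and its junction interval was 41.8 to 57.8. The 21-nt microexon of Tmem184b, a membrane protein, had a PSI of 15.6 and 67.1 with 376 and 519 junction reads. Both of these are without an annotated exon of the same ends. In Dopey1 the 30-nt microexon had no inclusion junction read beside 45 skipping reads with shControl, and 17 plus 8 beside 21 with shptbp1. PSI there was 0.3 and 50, and the junction interval of 30.9 to 62.5 was wide at this depth.

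The remaining microexons among the 15 largest rises with 20 or more junction reads in each library were again included in a minority of control transcripts. The apoptosis effector Bak1 (20 nt) had a PSI of 19.2 and 67.3, with 257 and 169 junction reads. The 15-nt microexon of Plec, which encodes the cytoskeletal linker plectin, had a PSI of 8.9 and 55.1 with 112 junction reads in control cells and fewer after knockdown, with no read on the right inclusion junction. The SNARE protein gene Vti1a (21 nt) had a PSI of 28.6 and 72.2, with 111 and 93 junction reads. Between the libraries these exons moved by 48.1, 46.2 and 43.6 points, and each junction interval lay well above 0. Tpd52 (27 nt) went from 9.9 to 57.0, Fry (18 nt) from 11.5 to 55.2 and the teneurin gene Tenm3, listed as Odz3 (27 nt), from 18.9 to 61.4. Gramd1b (12 nt), a sterol transfer protein of the endoplasmic reticulum, went from 2.3 to 43.5. Pfkfb3 (23 nt), an enzyme that sets the level of a glycolytic activator, went from 4.4 to 44.3, and the GTPase-activating gene Arhgap23 (23 nt) from 20.8 to 70.0 on only 31 and 54 junction reads. Over all members, 62 rose by 20 points or more and 36 by 30 points or more with an interval above 0. Shares of all cassette-class exons at these larger limits were not counted.

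**Figure D2:**
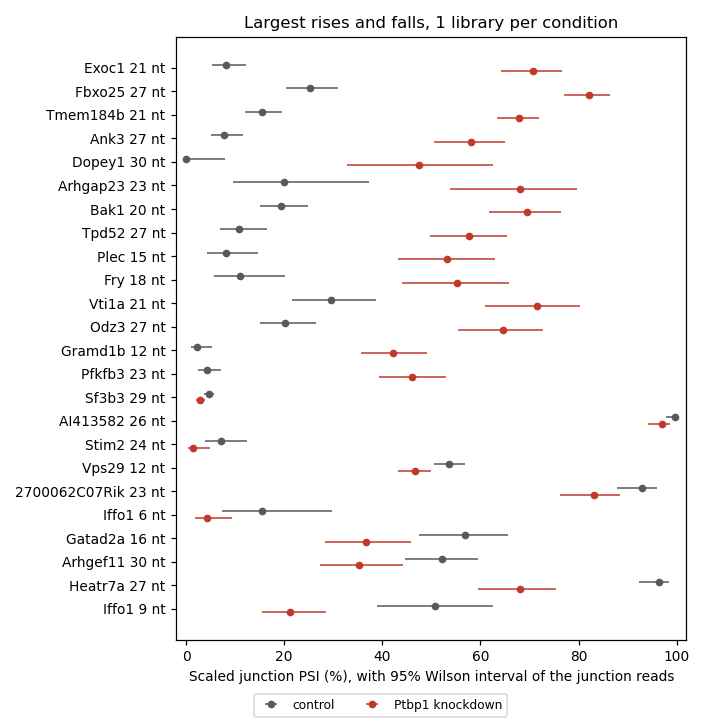
Scaled junction PSI (x axis, percent) of 14 of the 15 largest rises and the 10 largest falls among microexons with at least 20 junction reads in each library and an interval that excludes 0. Points are the single control (grey) and knockdown (red) libraries and bars the 95% Wilson intervals of their junction reads. The rises start between 0 and 30 in the control library, and the smallest of the falls are a few points in size.

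Falls were fewer and smaller. The 9-nt microexon of Iffo1, an intermediate filament family gene, had a PSI of 50.3 over 207 trio reads and 21.7 over 409. Its skipping junction held 32 and 115 reads and its left inclusion junction 35 and 32, a delta PSI of -28.6 with a junction interval of -42.7 to -15.6 (adjusted p = 2.65e-04 by Fisher's exact test). A 6-nt form that ends at the same place and starts 3 nt later shares the skipping reads, and its PSI was 14.5 and 4.4. The 27-nt microexon of Heatr7a, a gene of HEAT repeats, went from 96.6 to 69.9, with 6 skipping reads in control cells and 41 after knockdown. These were the only members that fell by 20 points or more with an interval below 0.

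The guanine nucleotide exchange factor gene Arhgef11 (30 nt) fell from 50.4 to 34.4, with an interval of -27.7 to -5.12. Gatad2a (16 nt), of the NuRD chromatin complex, fell from 41.2 to 29.7, although its junction reads alone gave a larger difference. Vps29 (12 nt), a retromer subunit that sorts endosomal cargo, fell from 53.5 to 46.0 on 1041 and 881 junction reads. The last of the falls of 5 points or more with an interval below 0 were 2700062C07Rik (23 nt), from 92.4 to 82.5, and Stim2 (24 nt), an endoplasmic reticulum calcium sensor, from 7.9 to 1.6. AI413582 (26 nt) at 99.9 and 97.1 and the spliceosome gene Sf3b3 (29 nt) at 4.5 and 3.0 moved by less than 5 points with intervals that excluded 0.

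Some of the largest values rest on too few junction reads to be placed. The 24-nt microexon of Clasp2, a protein of microtubule plus ends, had a PSI of 23.3 and 98.1, the largest delta PSI of all members at 74.8, but only 11 junction reads in the control library. Of those 11, 8 were inclusion reads, and the junction interval was 7.87 to 62.4. The SpliceTrap and junction values of Clasp2 thus differ in the control library. The 25-nt microexon of Tcf7l2, a Wnt pathway transcription factor, had 17.2 and 73.6 on 15 and 29 junction reads. Kcnh7 (21 nt), Cpeb3 (24 nt) and Nr4a2 (17 nt) had deltas of 54.1, 34.1 and 28.7, and each had a junction interval that included 0. In all, 25 members had under 20 junction reads in a library.

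Rises outnumbered falls in each length bin of the microexons, least so in the shortest. Of the 22 microexons of 10 nt or less, 5 rose and 3 fell, and their median control PSI was 91.7. Of the 59 of 11 to 15 nt, 25 rose and 2 fell; of the 57 of 16 to 20 nt, 29 rose and 1 fell. The class of 21 to 25 nt had 55 rises and 5 falls among 100, with the largest median delta PSI of the bins, 7.3 points. Among 103 of 26 to 30 nt, 48 rose and 12 fell. Just past the length limit the balance changed: of 935 cassette-class exons of 31 to 60 nt, 193 rose and 150 fell, and of 1928 of 61 to 100 nt, 251 rose and 309 fell. Single lengths differed, from 24 rises and no fall among the 34 microexons of 18 nt to 1 rise and 2 falls among the 5 of 6 nt and among the 6 of 28 nt.

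**Figure D3:**
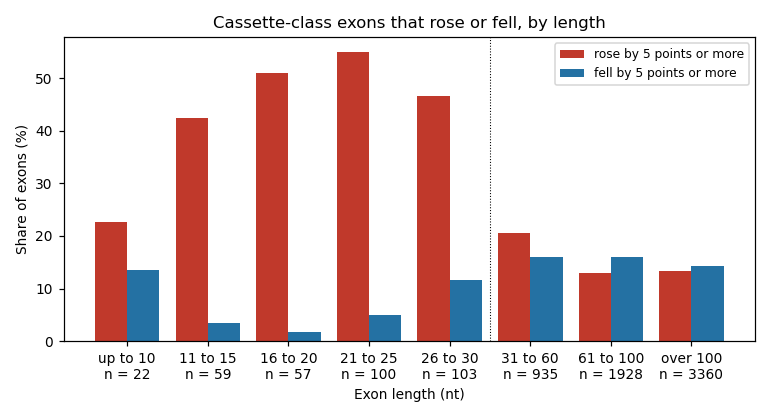
Share of cassette-class exons (y axis, percent) that rose (red) or fell (blue) by 5 points or more, by exon length (x axis, nt), with the number of exons under each pair of bars. The dotted line marks 30 nt. Rises outnumber falls in each bin left of the line, and to its right rises drop to 193 against 150 falls at 31 to 60 nt and are fewer than falls in the longer bins.

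Because microexons started lower than longer exons, rises were also counted within bands of control PSI. Of 93 microexons with a control PSI of up to 5, 35 rose (37.6%), against 9.53% of 944 longer exons in that band. From 5 to 25 the shares were 67.1% of 79 microexons and 30% of longer exons, and from 50 to 75 they were 75.9% of 29 and 30.5%. From 75 to 95 they were 47.5% of 59 microexons and 16.7%. In every band up to 95 the share was higher among the microexons. Microexons that were nearly skipped in the control library thus included 31 that rose with an interval above 0, among them Dopey1, Gramd1b and Pfkfb3.

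**Figure D4:**
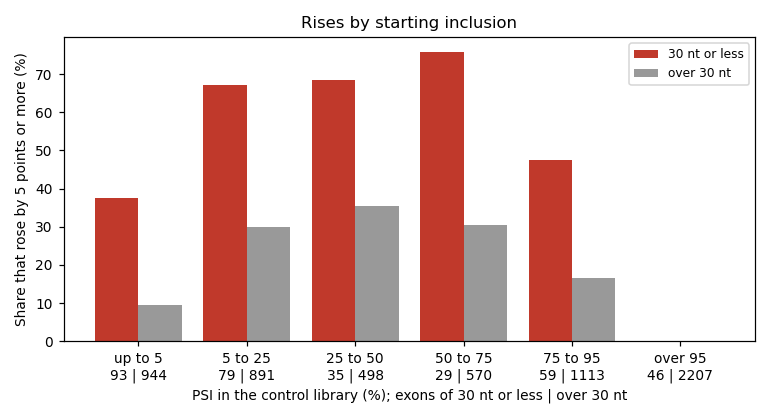
Share of exons that rose by 5 points or more (y axis, percent) by PSI in the control library (x axis, percent), for microexons (red) and cassette-class exons over 30 nt (grey), with both numbers of exons under each band. The microexon bar is the higher in each band up to 95, where it reaches 75.9% against 30.5%, and no exon above 95 could rise by 5 points.

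Short exons of the other database class were counted in the same way. Of 649 microexons that SpliceTrap lists as constitutive, with the same minimum of reads and no cassette-class trio, 41 rose (6.32%) and 12 fell (1.85%), and the median delta PSI was 0.0. The lower quartile of their control PSI was 99.6, so few of them could rise by 5 points.

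A length that is a multiple of 3 leaves the reading frame unchanged when an exon is skipped. That held for 269 of the 341 microexons (78.9%, 95% Wilson interval 74.2 to 82.9), against 47% of longer cassette exons. It held for 144 of the 162 that rose (88.9%), 18 of the 23 that fell and 107 of the 156 that moved by less. It was least common among the 50 microexons low in both libraries by SpliceTrap PSI (58%) and the 42 high in both (54.8%). The former include the undetermined exons of Arfgap1, Git1 and Map2k5. Of the microexons with a length that is a multiple of 3, 53.5% rose, and of the 72 others 25% rose. Among longer cassette exons the shares were 18.1% of multiples of 3 and 11.1% of the others. Both classes of microexon thus rose more often than longer exons of their kind. The gap between the classes of microexon was smaller between a PSI of 5 and 95 in either library. Within that limit 66.4% of 217 microexons with a multiple of 3 rose (95% Wilson interval 59.8 to 72.3). Of the 32 other microexons within it, 56.2% rose (39.3 to 71.8), and these intervals overlap.

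Some of the largest rises were among the frame-shifting microexons. Besides Bak1, Pfkfb3 and Arhgap23, the 17-nt microexon of Pdlim7, an actin-associated PDZ and LIM protein, went from 3.9 to 33.5, with 299 and 307 junction reads. The 29-nt microexon of Strada, a pseudokinase that activates the kinase LKB1, went from 68.1 to 87.9. Col4a1 (17 nt), a collagen of basement membranes, had 8.3 and 19.1 over 2026 and 1405 trio reads, and the Hnrnpc exon of 26 nt had 63.8 and 69.1 over 14883 and 9559. The Col4a1 and Hnrnpc exons have no annotated counterpart, and that of Arhgap23 matches an annotated exon that is only partly coding. No effect on a reading frame is shown for these exons. All microexons named in this paragraph had a junction interval above 0.

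Genes already known for neural microexons, listed with earlier results of these data in view, held 59 members in 45 genes. Of these, 30 rose (50.8%), 1 fell and 28 moved by less, with a median delta PSI of 5.2. That share is close to the members as a whole. Of the 120 longer cassette exons in genes of the list, 30.8% rose, against 14.4% of all longer exons. Within it, inclusion differed from exon to exon, and the host genes are described below by what their proteins do.

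On microtubules, 14 of 27 microexons rose (51.9%) and 1 fell, beside rises in 26.5% of the 102 longer cassette exons of these genes. The 15-nt microexon of Dctn1, the large subunit of the dynein activator dynactin, had a PSI of 37.3 over 895 trio reads and 71.4 over 1109, with an interval of 27.3 to 39.6. Ckap5 (24 nt), a microtubule polymerase, had 21.6 and 53.7 on 1172 and 891 junction reads, and the dynactin gene Dctn4 (21 nt) 43.2 and 71.1. Each of these moved by 27.9 to 34.1 points, from the middle of the PSI range in Dctn1 and Dctn4 and from a lower level in Ckap5. Clasp1, a relative of Clasp2, held 3 microexons that all rose: 27 nt from 21.6 to 55.5, 24 nt from 57.4 to 77.0 and another of 24 nt from 2.2 to 9.7. The 3 microexons of Macf1, a linker of actin and microtubules, had pairs of 92.3 and 97.5, 0.4 and 2.2, and 0.4 and 1.9. The first, of 18 nt, was a called rise of 5.2 points, but none had an interval above 0. The others, of 15 and 12 nt, overlap each other. The dynein intermediate chain gene Dync1i2 (18 nt) had 0.8 and 4.1 and the kinesin gene Kif3a (9 nt) 82.6 and 85.7.

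On actin and adhesion plaques, 9 of 22 rose (40.9%) and 1 fell, a share near the 34.8% of the 112 longer cassette exons of these genes. Abi2 (18 nt), of the actin-nucleating WAVE complex, rose from 7.1 to 35.9 on 256 and 264 junction reads, and its relative Abi1 (15 nt) from 88.8 to 95.4. The formin gene Daam1 (27 nt) rose from 30.3 to 70.1 and Pdlim5 (18 nt) from 1.6 to 36.5. Ptk2, which encodes focal adhesion kinase, held 3 microexons. Its 18-nt exon had a PSI of 48.1 and 87.9 on 103 and 79 junction reads, with an interval of 25.3 to 50.9, while its 21-nt exon had 93.0 and 96.5 and its 9-nt exon 92.5 and 94.9. The exons of Ptk2 that moved by less were already above 90 in control cells. Enah (12 nt), a promoter of filament growth, stayed at 0.5 and 1.1 over 1992 and 1455 trio reads, and the spectrin gene Spna2 (15 nt) at 67.0 and 69.6 over 3764 and 3642. The deep Spna2 junctions, with 1987 and 1974 reads, placed its difference between -0.847 and 5.24 points.

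In endocytosis, vesicle traffic and secretion, 14 of 32 rose (43.8%) and 2 fell, the latter including Vps29, and 19.4% of the longer exons rose. Unc13a (30 nt), which primes synaptic vesicles, rose from 47.1 to 86.4, Ppfia1 (30 nt), a liprin, from 20.7 to 53.0 and Erc1 (12 nt), a scaffold of release sites, from 51.1 to 81.9. The phosphoinositide phosphatase gene Synj1 held 2 microexons of 24 nt, of which one rose from 57.2 to 82.3 and the other from 1.7 to 25.9. Ap1b1 (21 nt), of the AP-1 adaptor, rose from 0.6 to 23.6 on 626 and 520 junction reads, and the clathrin heavy chain gene Cltc (21 nt) from 5.7 to 15.7 on 2462 and 1776. Neighbouring microexons of the same genes moved little, with 35.1 and 39.4 for a 9-nt exon of Ap1b1 and 0.3 and 0.2 for a 12-nt exon of Cltc. Trappc13, listed as 2410002O22Rik (18 nt), a subunit of a vesicle tether, rose from 57.1 to 68.8. Itsn1, an endocytic scaffold, stayed skipped in both libraries, with 0.5 and 0.9 for its 15-nt form over 1340 and 901 trio reads.

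Among regulators of small GTPases, 14 of 27 rose (51.9%) and 3 fell, and 30.8% of the longer exons rose. Arhgap21 (30 nt) rose from 14.6 to 47.7, the exchange factor gene Vav2 (15 nt) from 41.7 to 76.3 and the Arf GTPase-activating gene Asap2 (9 nt) from 68.8 to 88.4. Rapgef6 held a pair that both rose, of 24 nt from 5.1 to 22.2 and of 15 nt from 12.3 to 28.3. The 27-nt microexon of Git1 had a PSI of 0.0 in both libraries but 133 and 165 inclusion reads and no skipping read, so that its level is undetermined.

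Kinases and phosphatases held 37 members, of which 19 rose (51.4%) and 3 fell, and 17.8% of the longer exons of these genes rose. The microtubule-associated kinase gene Mast2 (21 nt) rose from 23.2 to 61.2, Cask (18 nt), a synaptic scaffold kinase, from 37.7 to 69.4 and Tnik (24 nt) from 49.2 to 78.0. Mink1 (24 nt), a relative of Tnik, rose from 74.6 to 90.7, whereas Map4k4 (9 nt) of the same family was at 94.9 and 97.4. Ppp3ca (30 nt), the catalytic subunit of calcineurin, rose from 4.7 to 21.7 on 1130 and 990 junction reads. The Src microexon of 18 nt was not measured, with 4 and 5 reads on its trio.

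Of 28 microexons in receptors, channels, pumps and transporters, 17 rose (60.7%) and 1 fell, beside 19.9% of the longer exons that rose, and the median delta PSI was 10.9. Their median junction reads were only 76 (control) and 105 (knockdown). Of the 17 rises, 12 had a junction interval above 0 (42.9% of the 28, against 36.4% of all members). These included the potassium channel gene Kcnq5 (27 nt), which had 58.1 and 91.6 on 22 and 42 junction reads, and Slc12a5 (15 nt), the neuronal potassium chloride cotransporter, with 35.5 and 67.6. A second Odz3 microexon (21 nt) rose from 20.5 to 50 and the calcium pump gene Atp2c1 (12 nt) from 22 to 43.5. Nrxn2 (24 nt), a presynaptic adhesion protein, had 14.6 and 18.8 with an interval of -2.78 to 13.0. The Ryr1 microexon was not measured, with at most 3 reads on its trio.

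Among nuclear and RNA-binding hosts, rises again outnumbered falls. In chromatin and transcription, 7 of 17 rose (41.2%) and 3 fell, with 16.6% of the longer exons risen, among them the rises of the Mediator gene Med23 (18 nt), from 49.1 to 64.1, and of Max (27 nt), from 53.2 to 61.6. Zmynd8 (12 nt), a reader of histone marks, was at 43.9 and 45.1, with an interval of -6.20 to 9.51. In RNA binding, splicing and translation, 5 of 20 rose (25%) and 1 fell, with 12.4% of the longer exons risen. The translation initiation scaffold Eif4g1 (21 nt) rose from 28.9 over 3373 trio reads to 56.9 over 3013, with an interval of 23.8 to 31.9. The Ewsr1 microexon of 18 nt rose from 10.3 to 29.5 on 2748 and 2012 junction reads, and a 15-nt form sharing an end with it from 2.5 to 9.7. Luc7l2 (30 nt), a component linked to the U1 snRNP, had the deepest trio at 25251 and 22876 reads and a PSI of 53.1 and 53.6.

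Of the 145 microexons in no list, 69 rose (47.6%) and 9 fell. With the junction interval taken into account, 34.5% rose and 5 fell, against 44.1% and no fall in the neural list, a difference that was not tested. Their hosts included Eprs (21 nt), a tRNA synthetase, from 18.2 to 47.0 on 1960 and 1697 junction reads, Incenp (12 nt), of the chromosomal passenger complex, from 44.1 to 64.2, and Nrbp1 (24 nt) from 13.6 to 35.3.

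Microexons of the same gene did not move as a unit. Of the 33 genes with 2 or more members, every member rose in 13, some but not all rose in 14 and none rose in 6, and in 2 genes a rise stood beside a fall. Spag9, a scaffold linking JNK signalling to motor proteins, had a 12-nt microexon that rose from 4.5 to 32.0 (interval 21.1 to 37.1) and a 15-nt microexon at 4.7 and 6.8 (interval -2.41 to 9.08). Of the members, 14 overlapped another and share its junction reads.

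The introns upstream of the microexons are described by composition, with no test. In the 100 nt before the exon, pyrimidines made up a median of 65% for the 162 that rose, 59% for the 156 that moved by less and 56% for longer cassette exons. A pyrimidine share of 70% or more was found for 24.7% of those that rose, 12.8% of those that moved by less, 34.8% of the 23 that fell and 6.26% of longer exons, or 17.4% of the longer exons that rose. A high share thus did not set these rises apart from these falls, but the falls were few. Of the 23 falls, 15 had a junction interval that included 0, and the overlapping Iffo1 forms were counted separately. Among the 124 rises with an interval above 0, a high share was found for 29.8%. The Pfkfb3 and Arhgap23 microexons had the shares 92% and 91%, and Bak1 and Plec 71% and 79%. The 23 microexons that fell had a median of 60%, and the Iffo1 exon, whose upstream stretch is printed above, had 79%.

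**Figure D5:**
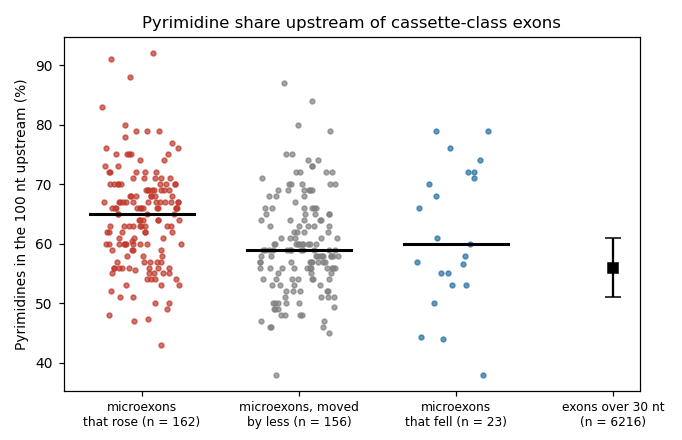
Percent of C and T in the 100 nt upstream of each microexon (y axis), by direction of its change, with a black line at the median, and the median and quartiles of cassette-class exons over 30 nt (square and bars). The medians are 65% for microexons that rose, 59% for those that moved by less, 60% for those that fell and 56% for longer exons, and the groups overlap widely.

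The motif CTCT, searched on the sense strand with overlapping matches allowed, was present in the 100 nt upstream of 72.8% of the microexons that rose, 62.2% of those that moved by less and 43.5% of those that fell, and of 56.4% of all cassette-class exons. TCTT, which can overlap CTCT, was present upstream of 82.7%, 75.6% and 73.9%, and of 64.9% of all cassette-class exons. TGC, the DNA form of UGC, was present in the last 30 nt before 67.9% of those that rose, 52.6% of those that moved by less, 43.5% of those that fell and 42.2% of all cassette-class exons. The nearest AG upstream of the splice site lay a median of 56 nt away for microexons that rose, 48.5 nt for those that moved by less, 42 nt for those that fell and 31 nt for longer exons. Restricting the unmoved microexons to the 64 between a PSI of 5 and 95 in either library left a pyrimidine median of 59%, CTCT in 56.2% and TGC in 59.4%. These matches are descriptions of the printed and counted windows and not sites of binding.

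Host gene expression was compared as a background to inclusion. Of the 304 host genes, 253 could be assigned to loci above 0 in both, and their median log2 FPKM ratio was -0.08 with quartiles of -0.34 and 0.21, against -0.03 with -0.32 and 0.37 over 11171 RefSeq genes. Hosts with a microexon that rose had a median of -0.08 and those without one -0.06. A ratio of at least 2-fold in either direction was found for 11 hosts (4.35%), against 14.7% of the RefSeq genes. The hosts had also passed the minimum of trio reads in each library, whereas the RefSeq genes needed only an FPKM above 0 in both. The sets were not matched for expression level, so whether host genes were steadier than other genes was not tested. The FPKM of Srrm4 and Srrm3, the activators of microexons, had log2 ratios of 0.02 and -0.01.

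The members just inside the minimum of reads were a 12-nt exon of Dnm3 with 24 and 30 reads and a PSI of 83.4 and 99.9, and a 20-nt exon of Cacnb1 with 25 and 69 reads and 98.6 and 97.8. Just outside were a 27-nt exon of Ppp3cc with 18 and 20 reads and 10.9 and 48.5, and one of Baz2b with 24 and 19 reads and 99.9 in both.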

How the data were processed

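RNA was sequenced from 2 N2A libraries, 1 per condition, as taken from the labels and the methods of the study. Per the labels, reads were processed with CASAVA, TopHat and Cufflinks on mm9. SpliceTrap was run by the authors, who deposited for each exon trio the inclusion ratio as a fraction, a read count for the 3 junctions, and coverage per 100 nt, none scaled to library size. The authors also deposited FPKM for the loci assembled in each library. The scale of the FPKM values is unusual, so they were used as ratios only, with a pseudocount of 1, after summing over the loci whose RefSeq transcripts belong to a gene.

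Reads of a trio were its coverage times the summed exon lengths over 100. Where an exon had several trios, that with the most reads was kept, and exons that overlap were kept apart. A call was a PSI difference of 5 points. Junction intervals were 95% Wilson intervals for a PSI or a share and 95% Newcombe intervals for a difference, and covered counting error only. Two-sided Fisher's exact tests on inclusion and skipping junction reads were adjusted by Benjamini-Hochberg over all cassette-class exons with junction reads. Annotation was GENCODE M1 and sequence NCBIM37, which is mm9. Gene symbols are those of that annotation.

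The members and the gene lists were chosen with earlier results of these data known. The text names 14 of the 15 largest rises and the 10 largest falls with at least 20 junction reads in each library and an interval on the side of the PSI difference, 5 genes of the study, the members of the neural list, and the 5 largest changes on few reads. Some results are not reported here. Examples in other lists were chosen after their values were seen. Alternatives were other read minimums, the mean over trios, the uncorrected ratio, junction PSI, limits on PSI, a threshold of 10 points, other ways of joining the inclusion junctions, and another pseudocount and scaling for FPKM. Genome sequence was read with samtools 1.23.1 and pysam 0.24.0, figures were drawn with matplotlib 3.10.9, and values were computed in Python 3.11.15 with SciPy 1.17.1, pandas 2.3.3 and NumPy 2.4.6.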

Additional observations from a re-analysis of the deposited data

How the results depend on the processing

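The counts of microexons that rose, with or without a junction interval above 0, stayed within 1.5 times the reported ones under each alternative run, at 113 to 165 and 99 to 127. With a threshold of 10 points, the falls were 6 in place of 23, and those with an interval below 0 were 5 in place of 8. The other alternatives left 19 to 24 falls, and 6 to 9 with an interval below 0. Among the 249 microexons between a PSI of 5 and 95 in either library, the median delta PSI was 8.2 points in place of 4.4, and 87.1% had a length that is a multiple of 3 in place of 78.9%, a limit that kept all 162 rises and 23 falls and removed only microexons that moved by less than 5 points, so that the higher median follows from it. The median otherwise lay between 4.2 and 4.6. The ratio before correction, junction PSI and the mean over trios were compared for the largest rises and falls, the neural list and the study's genes. No called difference in that set changed sign. Other microexons named in the text were outside this comparison. Among them, the 27-nt Lphn2 exon rose by 10.4 points of PSI, but its junction difference was -20.8 points on 7 and 27 junction reads. The interval of that difference, -50.5 to 20.5, included 0. The log2 ratio of Ptbp1 was -1.61 with a pseudocount of 0.1 and -1.56 after median scaling.

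No paired analysis was possible because each condition has 1 library, and no replicate could be left out. The spread between cultures is unknown. Depth limits the members under 20 junction reads in a library, whose largest differences have wide intervals. How reads that span a whole microexon were counted is uncertain, and other ways of joining the inclusion junctions changed no count of rises by more than 1.5 times. The mapping of short exons depends on the aligner's exon database, and microexons outside it were not measured.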
